A study of Mus musculus with 2 samples.

Results

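Scd1, Scd2, Fasn, Acaca, Hmgcs1, Fdft1, Sqle and Insig1 are mouse genes of fatty acid and sterol synthesis. They were taken by symbol, 8 of the 32286 features in both count matrices, and were described in cells with 500 or more genes and 10% or less of their UMIs (counted RNA molecules) from mitochondrial genes. They were chosen by symbol with earlier results of the same data known, in which the summed UMIs of Scd1 and Scd2 were lower in the trace than in the pulse library, so the values of trace over pulse are given as a description only. The question asked of them was whether their transcripts belonged to cycling chondrocytes of the deeper cartilage zone or to all deeper-zone cells.

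The data were 2 droplet single-cell libraries from knee joint cartilage of Procr-CreER;tdTomato mice, in which tamoxifen-activated Cre made under Procr switches on the red reporter tdTomato. In the trace library the mice were given tamoxifen at 4 weeks of age and cells were collected 4 weeks later. In the pulse library tamoxifen was given at the same age and cells were collected 2 days later. Each library pooled 3 mice, whose cells cannot be told apart, and both held reporter-positive cells sorted as negative for CD45, Ter119, CD31 and the dead-cell dye DAPI. With 1 library per group there is no replicate, so no test of a difference between the groups could be made, and every interval given is a 95% interval that covers counting error only.

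Acaca makes malonyl-CoA from acetyl-CoA, Fasn builds it into saturated fatty acids, and the stearoyl-CoA desaturases Scd1 and Scd2 place the first double bond. Hmgcs1 makes HMG-CoA early in the mevalonate pathway, Fdft1 joins farnesyl units into squalene, and Sqle oxidises squalene on the way to cholesterol. Transcription factors of the SREBP family drive these genes when sterols are scarce, and Insig1, itself one of their targets, holds their escort protein Scap in the endoplasmic reticulum when sterols are plentiful.

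The trace library held 10423 barcodes, of which 9247 were kept with a median of 3645 UMIs, and the pulse library held 6863, of which 6533 were kept with a median of 2837. Kept cells of the libraries shared 15 barcodes. The libraries also differed in sex-linked transcripts, with 14149 UMIs of Xist in trace and 3 in pulse, and 13 UMIs of the Y-linked Ddx3y in trace and 4246 in pulse. The transcript Gm42418, which overlaps ribosomal RNA, took 6.73% of the UMIs in trace and 0.653% in pulse. Chase length, age at collection, the mice and these library differences go together and cannot be told apart in any value of trace over pulse.

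Cells were put into classes by summed marker genes, and each class is called by the name of its list. A cell that passed several gates went to the class whose cutoff it exceeded most in proportion. Such cells were 187 of 264 trace and 175 of 257 pulse cells of the Npy and Angptl7 class. They were 523 of 1039 trace and 245 of 460 pulse synovial-lining-like cells, and 10 of 155 trace and 28 of 751 pulse deeper-zone-like cells. Deeper-zone-like cells, gated on Matn3, Col9a1, Col9a2, Epyc, Matn1, Col11a2 and Cnmd at 0.4% or more of a cell's UMIs, numbered 155 in trace and 751 in pulse, or 1.68% and 11.5% of kept cells in the same order. Of 10 deeper-zone markers that the gate did not use, 8 were raised in these cells (20 CPM or more and at least 1.5-fold above the other cells). Superficial-zone-like cells, gated on Cilp, Clu, Ecrg4 and Cytl1, numbered 4052 in trace and 2644 in pulse, and 2 of the 6 superficial markers outside the gate were raised. The labels call all sorted cells superficial, so the deeper-zone-like cells stand against that label. The protocol also took in long bone, periosteum and epiphysis, and a cell's site is not known from its gate. Prg4, the superficial-zone lubricant gene, was at 338 CPM in trace and 244 CPM in pulse deeper-zone-like cells, and at 27643 CPM in trace and 9385 CPM in pulse superficial-zone-like cells. The gate cutoffs were set on these cells, and 68 trace and 161 pulse cells lay close to the deeper-zone cutoff, between 0.3% and 0.5%.

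Promoter sequence from RefSeq (GRCm38.p6) was at hand for Acaca, Fasn, Hmgcs1 and Insig1, and 3 are shown because they carry letters known from SREBP-driven promoters. Each run of 200 bases is given 5′ to 3′ on the gene's strand and ends 51 bases before the annotated start. Hmgcs1 lies at chr13:119690101-119690300 on the plus strand, Fasn at chr11:120824598-120824797 on the minus strand and Insig1 at chr5:28071162-28071361 on the plus strand. Capitals mark matches, on either strand, to the sterol regulatory element TCACCCCAC, to CCAAT and to the E-box CACGTG.
Hmgcs1: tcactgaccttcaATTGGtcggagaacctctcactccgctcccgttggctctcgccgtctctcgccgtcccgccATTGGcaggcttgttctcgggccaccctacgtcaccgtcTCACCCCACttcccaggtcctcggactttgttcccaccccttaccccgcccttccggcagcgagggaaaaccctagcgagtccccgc
Fasn: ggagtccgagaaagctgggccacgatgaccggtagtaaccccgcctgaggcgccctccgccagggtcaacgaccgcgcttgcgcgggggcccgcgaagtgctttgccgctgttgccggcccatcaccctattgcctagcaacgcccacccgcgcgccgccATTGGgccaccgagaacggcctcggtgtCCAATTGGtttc
Insig1: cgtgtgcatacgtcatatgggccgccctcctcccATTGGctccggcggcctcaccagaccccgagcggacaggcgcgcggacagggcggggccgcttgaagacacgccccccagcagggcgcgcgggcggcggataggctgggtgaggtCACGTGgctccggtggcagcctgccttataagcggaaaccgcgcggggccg
Hmgcs1 held TCACCCCAC, its first base 137 bases before the start, and 0.371% of 32851 promoter windows of the same length held it. CCAAT was found in Hmgcs1, in Fasn, where 2 of 3 matches overlap, and in Insig1, and 28.4% of all windows held it. CACGTG was found in Insig1, beside 4.34% of all windows. The Acaca window, which lies inside the longer GENCODE gene model, matched none of them. These matches describe letters in the windows and do not mark a site in use.

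In pulse, the genes were not confined to cycling deeper-zone-like cells. Cycling cells were those with 0.4% or more of their UMIs from S and G2/M genes, and 124 of 751 deeper-zone-like cells (16.5%) met this in pulse, against 5 of 155 in trace. Of the 8 genes, 0 were at least 2-fold higher in the 124 cycling cells than in the 627 non-cycling ones, and 0 were 2-fold lower. Over the 7061 features at 20 CPM (counts per 1000000 UMIs) or more in either group, 9.63% were at least 2-fold higher and 2.97% at least 2-fold lower. The same non-cycling cells set against superficial-zone-like cells had 7 of the 8 genes at least 2-fold higher and 0 lower, where 15.6% of 6847 features were higher and 13.5% lower.

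Among the fatty acid genes, Scd2 had 935 CPM in cycling and 607 CPM in non-cycling deeper-zone-like cells of pulse, a ratio of 1.54 (1.44 to 1.65). Scd1 had 338 CPM in cycling and 331 CPM in non-cycling cells, a ratio of 1.02 (0.916 to 1.14). The interval for Scd2 lay above 1 and that for Scd1 spanned it, although both genes code for the same desaturase step. Fasn had 61.2 CPM in cycling and 41.4 CPM in non-cycling cells, a ratio of 1.48 (1.12 to 1.94). Acaca had 66.9 CPM in cycling and 67.2 CPM in non-cycling cells, a ratio of 0.995 (0.771 to 1.27), an interval that spanned 1.

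Among the sterol genes, Fdft1 had 102 CPM in cycling and 59.1 CPM in non-cycling cells, a ratio of 1.72 (1.38 to 2.13). Hmgcs1 had 220 CPM in cycling and 165 CPM in non-cycling cells, a ratio of 1.34 (1.16 to 1.54). Fdft1 had the largest ratio of the 8 genes, short of 2-fold. Sqle, the next enzyme after Fdft1, had 36.3 CPM in cycling and 42.3 CPM in non-cycling cells, a ratio of 0.858 (0.606 to 1.19). Insig1 had 409 CPM in cycling and 302 CPM in non-cycling cells, a ratio of 1.35 with an interval above 1. The median log2 ratio of the 8 genes was 0.43, and that of all features tested was 0.00. Cycling cells were deeper, with a median of 10275 UMIs against 6824 in non-cycling cells, and the part of depth in these ratios was not tested. Among cells of 4000 to under 8000 UMIs alone, a range chosen after the data were seen, Scd2 and Insig1 passed 2-fold, at 1.12 and 1.11 on the log2 scale, where 15.3% of features were 2-fold higher. With cycling set at 0.1% or more of UMIs, which took 599 of the 751 cells, Scd2 at 1.14 and Fdft1 at 1.26 on the log2 scale passed, where 6.92% of features did. With 4 or more cycle UMIs (637 cells), Scd1, Scd2 and Fdft1 passed, where 9.32% of features did. With 2 or more (703 cells), Scd1, Scd2, Fasn and Fdft1 passed and Acaca was 2-fold lower, where 13.1% of features were higher and 21.2% lower. The log2 ratio of Scd2 was 2.46 and that of Fasn 2.03 under this last definition, and those of Scd2 and Fasn with 4 or more cycle UMIs were 1.76 and -0.51.

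Mki67 and Top2a, proliferation genes that are part of the cycle list, set the cycling cells apart, with Mki67 at 259 CPM in cycling and 2.41 CPM in non-cycling cells, and Top2a at 456 and 4.16 CPM in the same order. How the lipid genes ran along the cycle share was seen in deeper-zone-like cells of pulse with Ibsp, a bone matrix gene, below 2 per 10000 UMIs. These were 442 cells with a cycle share under 0.2%, 156 cells from 0.2% to under 0.4% and 123 cells at 0.4% or more. Scd2 had 472, 951 and 944 CPM in that order, Scd1 had 272, 492 and 342 CPM, and Insig1 had 246, 444 and 413 CPM. For these genes the step came between the lowest and the middle share, where Mki67 was at 1.93 and 3.94 CPM, and not at the step to the cells with Mki67 at 263 CPM.

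Hmgcs1 followed the same course, with 129, 248 and 223 CPM from the lowest to the highest cycle share, and Fasn had 35.5, 61.5 and 62.3 CPM. Sqle had 32.6, 61.5 and 36.9 CPM and so was highest in the middle share. Fdft1 differed, with 51.6, 78.0 and 103 CPM, a further step up in the cells with the highest share. Acaca had 71.6, 55.9 and 68.0 CPM, with overlapping intervals between neighbouring shares. From the lowest to the middle share, 1 of 8 genes (Scd2, ratio 2.02, 1.87 to 2.18) passed 2-fold, where 3.33% of features were 2-fold higher and 3.51% lower. From the middle to the highest share 0 of 8 did, where 9.74% of features were 2-fold higher and 3.24% lower. Median UMIs per cell were 6570, 7723.5 and 10203 over the 3 shares.

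**Figure D1:**
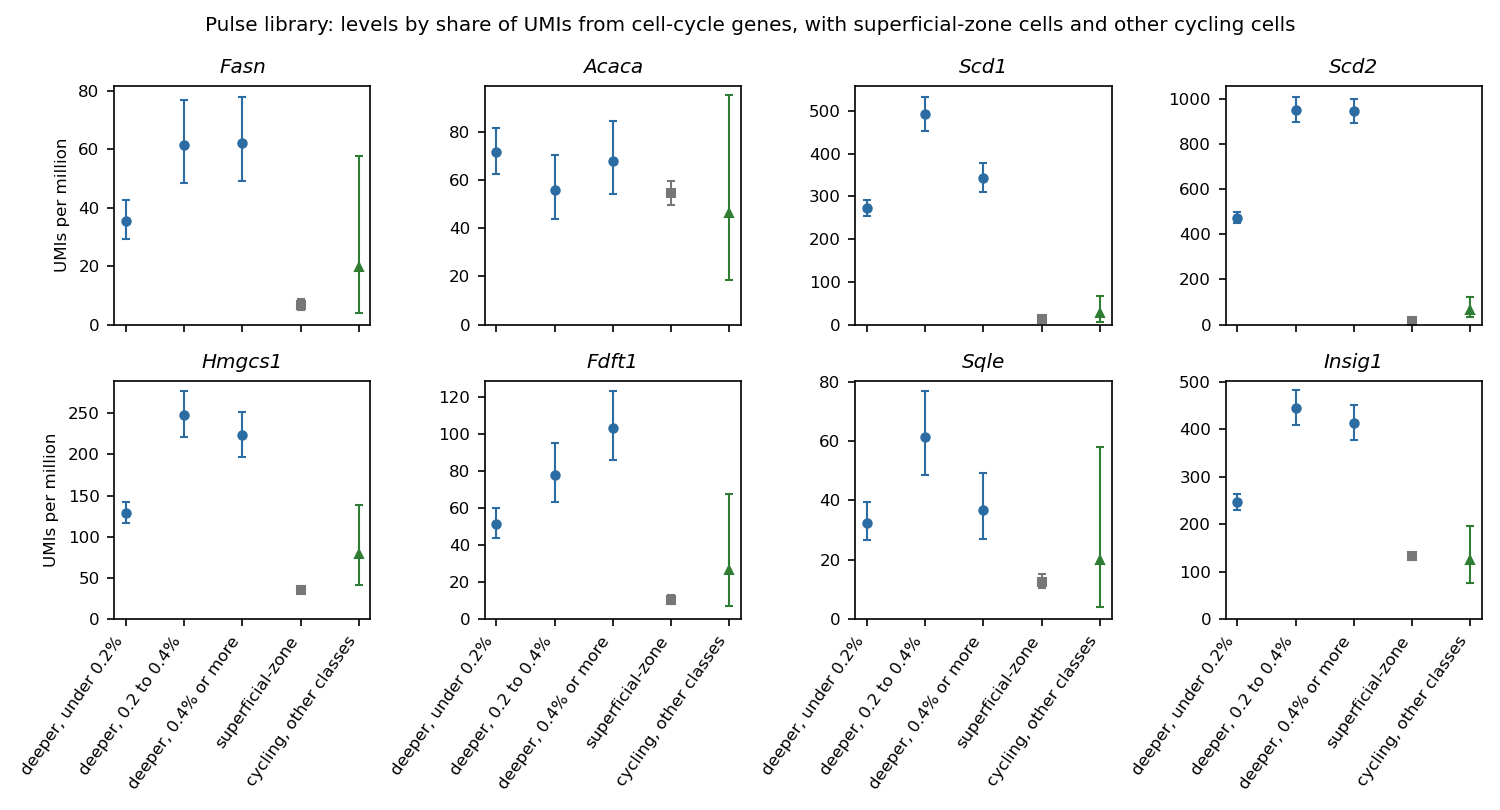
Levels (y axis, CPM, linear from 0) of the 8 genes in pulse deeper-zone-like cells with Ibsp below 2 per 10000 UMIs by the share of UMIs from cell-cycle genes (blue circles), in superficial-zone-like cells (grey squares) and in cycling cells of neither zone class, ungated cells among them (green triangles), with 95% Poisson intervals. Scd2 stood at 472, 951 and 944 over the 3 shares, against 16.8 in superficial-zone-like cells and 66.0 in the 61 other cycling cells.

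Cycling cells outside the deeper-zone class had lower desaturase levels than those in it. In pulse, 46 of the 61 cycling cells of neither zone class passed no gate, so their type is not known. The 234 such cells of trace held 73 that passed no gate, 57 neutrophil-like and 54 B-lineage-like cells. The 61 cells of pulse had 66.0 CPM (31.6 to 121) of Scd2 and 26.4 CPM (7.19 to 67.6) of Scd1, and the 234 cells of trace had 25.4 CPM and 7.25 CPM. The 27 cycling superficial-zone-like cells of pulse had 2 UMIs of each, or 30.5 CPM (3.69 to 110), from a median of 2028 UMIs per cell, while their Mki67 was at 137 CPM. Hmgcs1 and Insig1 were less far apart, with 107 CPM (42.9 to 220) and 168 CPM (83.7 to 300) in those 27 cells, and the interval of Hmgcs1 overlapped that of cycling deeper-zone-like cells.

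Non-cycling deeper-zone-like cells of pulse stood far above superficial-zone-like cells in both desaturases. Scd2 had 607 CPM in the non-cycling deeper-zone-like cells, against 16.8 CPM in superficial-zone-like cells, a ratio of 36.1 (30.4 to 43.0). Scd1 had 331 CPM against 14.2 CPM, a ratio of 23.3 (19.3 to 28.3). The enzymes that supply them differed from each other: Fasn had 41.4 CPM in deeper-zone-like cells, against 6.68 CPM in superficial-zone-like cells, a ratio of 6.19 (4.57 to 8.50). Acaca was the 1 gene that did not reach 2-fold, with 67.2 CPM against 54.5 CPM, a ratio of 1.23 (1.06 to 1.43).

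The sterol enzymes had smaller ratios than the desaturases, between 3.34 and 5.63. Fdft1 had 59.1 CPM in non-cycling deeper-zone-like cells, against 10.5 CPM in superficial-zone-like cells, a ratio of 5.63 (4.41 to 7.25). Hmgcs1 had 165 CPM against 35.5 CPM, a ratio of 4.64 (4.05 to 5.33), and Sqle had 42.3 CPM against 12.7 CPM, a ratio of 3.34 (2.62 to 4.28). Insig1 was also well represented in superficial-zone-like cells, with 302 CPM in deeper-zone-like cells against 132 CPM, a ratio of 2.28 (2.11 to 2.47). The median log2 ratio of the 8 genes was 2.35, and that of all features was 0.01. Adipoq and Cidec, defining adipocyte genes, were at 0 in deeper-zone-like cells of both libraries. Plin1, of the same marker list, had 0 UMIs in those of trace and 6 in those of pulse. The 8 adipocyte and marrow stromal markers summed to 16.9 CPM in the non-cycling deeper-zone-like cells of pulse, against 9.67 CPM in superficial-zone-like cells.

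In trace the same order of zones was seen, with smaller ratios for the desaturases, Fasn and Sqle. All 155 deeper-zone-like cells were used there, since only 5 were cycling, and 5 of the 8 genes were at least 2-fold higher than in superficial-zone-like cells, where 10.3% of 6079 features were so and 15.3% were lower. Scd1 had 101 CPM in deeper-zone-like cells, against 11.9 CPM in superficial-zone-like cells, a ratio of 8.52 (6.68 to 10.8). Scd2 had 59.7 CPM against 18.2 CPM, a ratio of 3.27 (2.45 to 4.32). Fasn passed 2-fold with 22.9 CPM against 10.3 CPM, a ratio of 2.22 (1.38 to 3.43) whose lower bound lay under 2.

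Fdft1 had 57.7 CPM in deeper-zone-like cells of trace, against 10.5 CPM in superficial-zone-like cells, a ratio of 5.49 (4.03 to 7.38). Hmgcs1 had 126 CPM against 37.2 CPM, a ratio of 3.39 (2.79 to 4.10). The intervals of Fdft1, Hmgcs1, Insig1 and Acaca overlapped those of the non-cycling pulse cells, for Hmgcs1 and Insig1 only narrowly. The intervals of Scd1, Scd2, Fasn and Sqle lay wholly below those of pulse. Sqle at 1.81 (1.28 to 2.49), Insig1 at 1.73 (1.36 to 2.18) and Acaca at 0.972 (0.714 to 1.30) did not reach 2-fold. The all-feature median was -0.21 on the log2 scale in trace, against which the 8 genes had a median of 1.43. The 155 cells gave 102 UMIs of Scd1, 15 of them in 1 cell, so the trace values rest on few molecules.

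**Figure D2:**
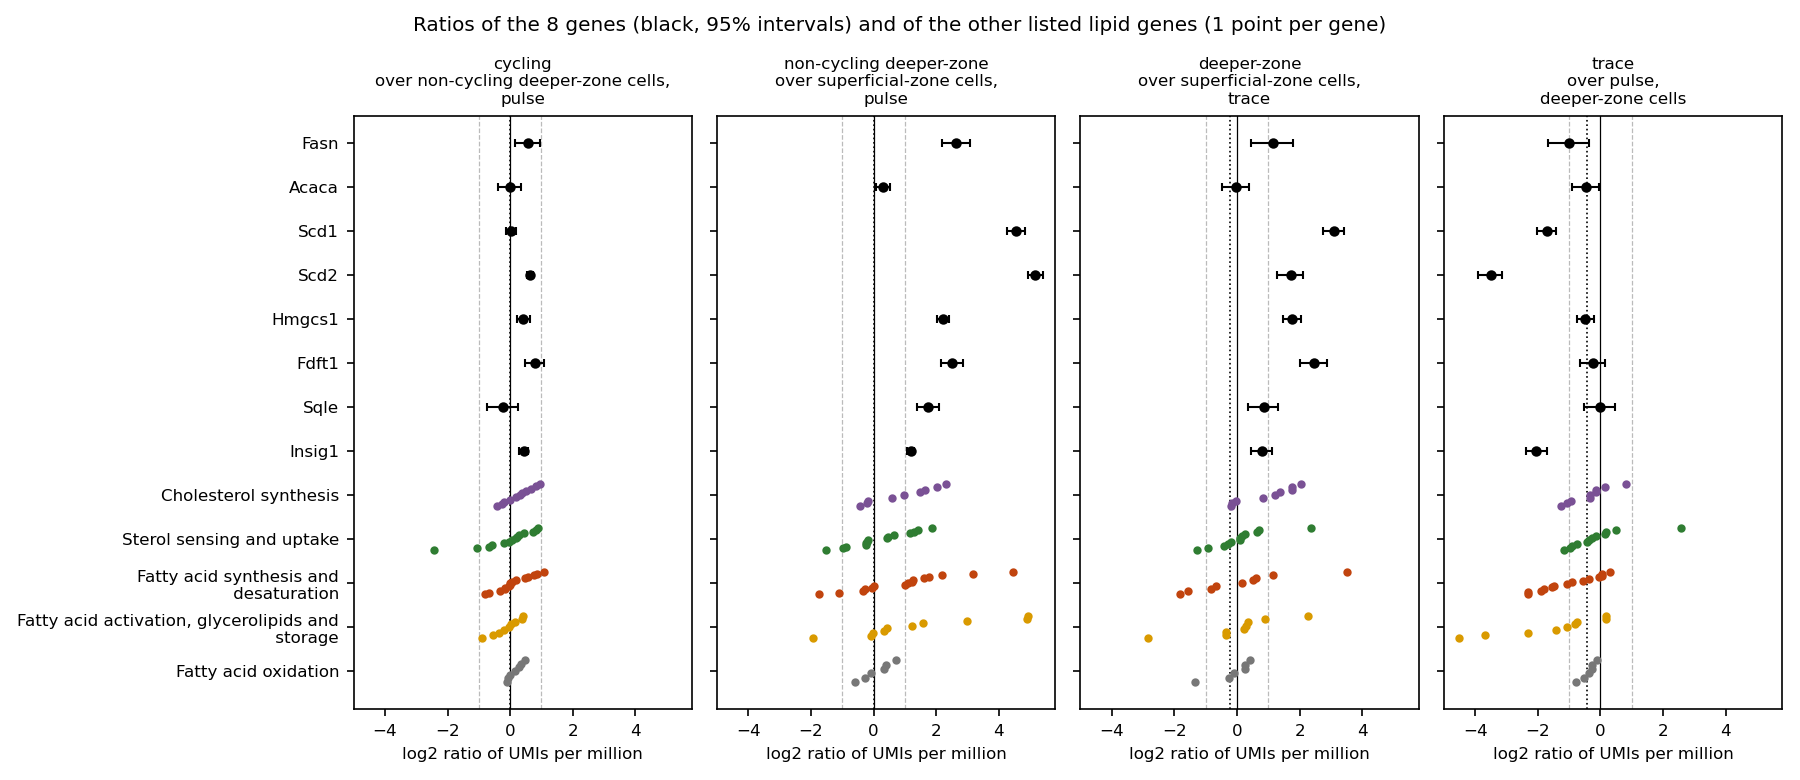
Log2 ratios of CPM (x axis) for the 8 genes (black, 95% intervals) and for the other measured genes of 5 lipid lists (coloured, 1 point per gene) in 4 comparisons, with dashed lines at 2-fold and a dotted line at the median of all features tested. Cycling over non-cycling cells left all 8 genes within 2-fold, and deeper-zone over superficial-zone cells placed Scd2 and Scd1 of pulse at ratios of 36.1 and 23.3.

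At equal depth the zones also differed. With every cell thinned to 2000 UMIs and shallower cells left out, 67.6% (57.9 to 76.3) of 108 cycling and 49.2% (45.1 to 53.4) of 575 non-cycling deeper-zone-like cells of pulse had a UMI of Scd2, against 2.61% of 2030 superficial-zone-like cells. For Scd1 the shares were 41.7% (32.3 to 51.5) of cycling cells, 35.7% (31.7 to 39.7) of non-cycling cells and 2.36% (1.75 to 3.12) of superficial-zone-like cells. Thinning left out 16 cycling, 52 non-cycling and 614 superficial-zone-like cells, and before it 70.2% of all deeper-zone-like cells of pulse had a UMI of Scd2. Endothelial-like cells of trace, with a median of 2296 UMIs before thinning, served as a level for free RNA: 3.30% (1.34 to 6.68) of 212 had a UMI of Scd2 and 0 of 212 one of Scd1, which by the limit of 3 cells that a count of 0 allows is a share of up to 1.42%. The superficial-zone-like shares of Scd2, 3.43% in trace and 2.61% in pulse, lay within that interval. It comes from trace alone and from cells whose own making of Scd2 is not known. Whether the superficial-zone-like signal is free RNA was not tested. The Scd2 ratios between the zones were thus set against a level that may be background. In trace, 9.70% (5.27 to 16.0) of 134 non-cycling deeper-zone-like cells had a UMI of Scd2 and 14.2% (8.76 to 21.3) one of Scd1. Before thinning, 24.5% and 31.6% of all deeper-zone-like cells of trace had one.

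Among the sterol genes at this depth, Hmgcs1 was seen in 24.1% (16.4 to 33.3) of cycling and 18.3% (15.2 to 21.7) of non-cycling deeper-zone-like cells of pulse, against 6.85% (5.79 to 8.03) of superficial-zone-like cells. In trace, 19.4% (13.1 to 27.1) of 134 non-cycling deeper-zone-like cells had a UMI of Hmgcs1, against 6.09% (5.32 to 6.93) of 3530 superficial-zone-like cells. Fdft1 was seen in 14.9% (9.36 to 22.1) of the same trace cells and in 9.74% (7.44 to 12.5) of non-cycling cells of pulse. Insig1 stood out in superficial-zone-like cells, with a UMI in 8.10% (7.22 to 9.05) of them in trace and 20.3% (18.6 to 22.1) in pulse.

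**Figure D3:**
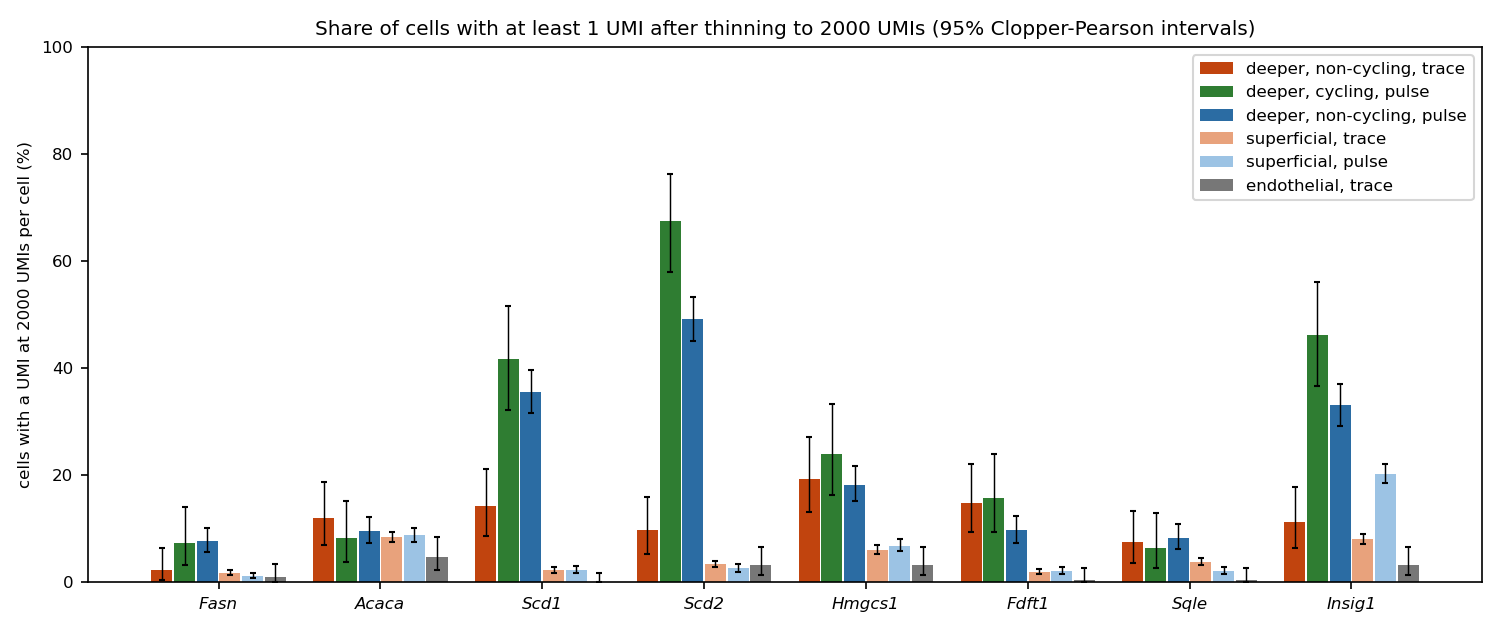
Share of cells with at least 1 UMI of each gene after thinning every cell to 2000 UMIs (y axis, percent, bars from 0, 95% Clopper-Pearson intervals) in 6 groups of cells. For Scd2 the shares were 9.70% in trace non-cycling deeper-zone-like cells, 67.6% and 49.2% in pulse cycling and non-cycling ones, and under 4% in the superficial-zone-like and endothelial-like cells.

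Within non-cycling deeper-zone-like cells of pulse, Scd2, Scd1, Insig1, Hmgcs1 and Fdft1 had higher levels where the share of the gate's own markers was higher, and Sqle and Acaca did not. When the 627 pulse cells were cut into 3 sets of 209 by their share of deeper-zone gate markers, Scd2 had 211, 551 and 922 CPM from the lowest to the highest set. Scd1 had 136, 307 and 482 CPM, and Insig1 had 168, 226 and 460 CPM. Hmgcs1 had 105, 121 and 244 CPM, with its step at the highest set, as for Insig1. Fasn had 32.9, 29.9 and 57.5 CPM and Fdft1 had 45.5, 52.9 and 73.9 CPM. Sqle, at 41.3, 42.3 and 42.9 CPM, and Acaca, at 68.3, 60.4 and 72.8 CPM, had overlapping intervals across the sets. Median UMIs per cell were 5069, 7049 and 8011 over the same sets, so depth moved with the marker share, and its part was not tested. By depth alone, Scd2 had 252, 504 and 715 CPM in non-cycling pulse cells under 4000, from 4000 to under 8000 and at 8000 or more UMIs, and 170, 38.1 and 56.3 CPM in the trace cells.

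In trace, sets of 50 non-cycling cells had 45.0, 130 and 223 CPM of Hmgcs1 and 24.0, 52.0 and 112 CPM of Fdft1 from the lowest to the highest set, while median UMIs ran from 6839 in the lowest set through 6120 to 5587 in the highest. Scd2 had 33.0, 61.7 and 88.7 CPM in the trace sets. Scd1 had 69.0, 136 and 118 CPM, and its middle and highest sets overlapped. Scd2 was at 88.7 CPM in the highest trace set and at 211 CPM in the lowest pulse set, a direction known when the genes were chosen. The sets were cut within each library, so sets of the same name need not hold equal marker shares. Over all deeper-zone-like cells, the 17 deeper-zone markers summed to 41454 CPM in trace and 57488 CPM in pulse.

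**Figure D4:**
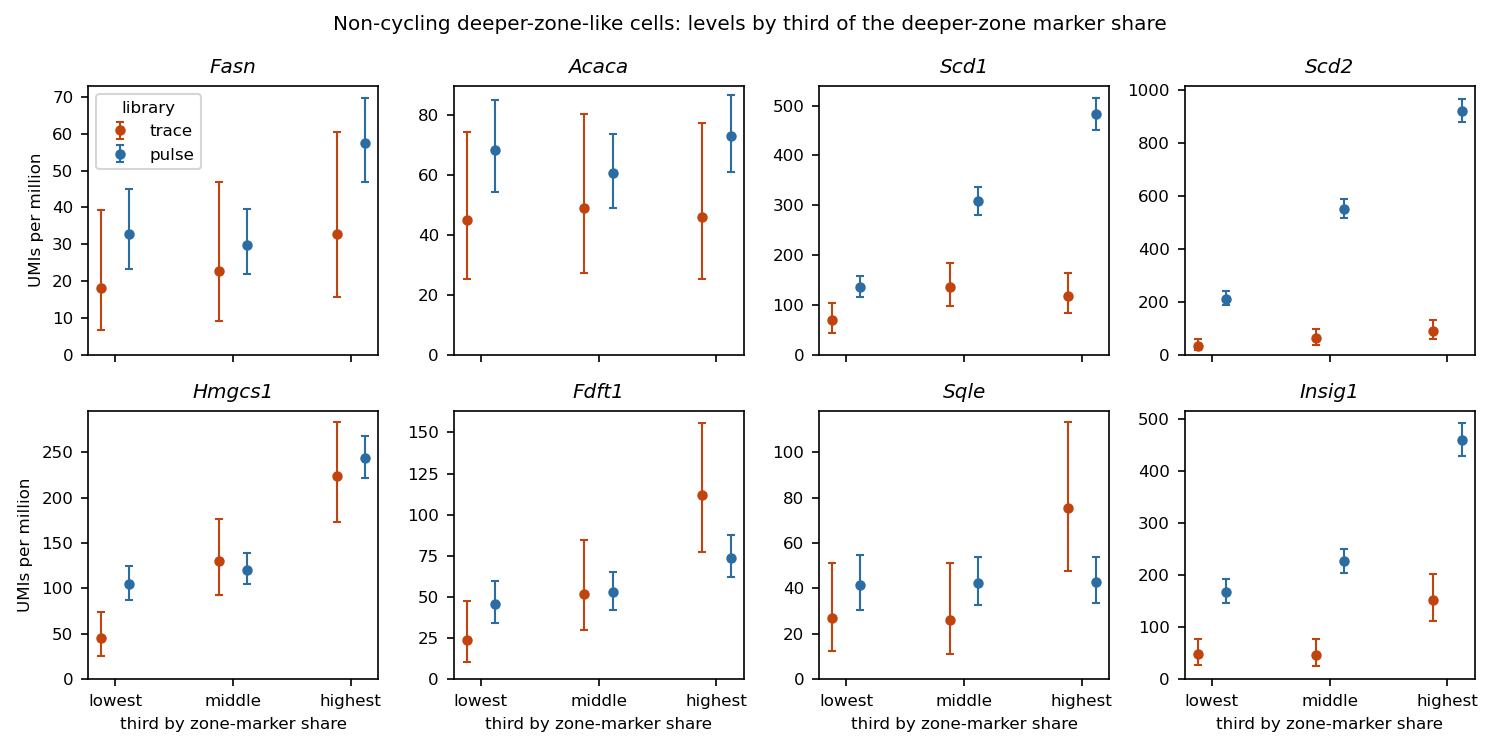
Levels (y axis, CPM, linear from 0) of the 8 genes in non-cycling deeper-zone-like cells of trace (orange, 50 cells a set) and pulse (blue, 209 cells a set), cut within each library by their share of deeper-zone gate markers, with 95% Poisson intervals. Hmgcs1 and Fdft1 were highest in the set with the most marker in both libraries, whereas Scd1, Scd2 and Insig1 in trace stayed below pulse in every set.

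Deeper-zone-like cells with Ibsp carried Scd1, Scd2, Hmgcs1 and Insig1 too, but Fasn was hardly seen in those of pulse. Of 189 Fasn UMIs in the 627 non-cycling cells of pulse, 188 were in the 598 Ibsp-low cells. The 29 non-cycling Ibsp cells of pulse, which had 12546 CPM of the hypertrophy gene Col10a1, had 511 CPM of Scd2 and 217 CPM of Scd1. The 33 such cells of trace had 52.7 CPM of Scd2 and 57.5 CPM of Scd1. Hmgcs1 had 110 CPM in the trace cells and 191 CPM in the pulse cells. Without Ibsp cells the ratio of non-cycling deeper-zone-like over superficial-zone-like cells of pulse was 36.3 (30.6 to 43.3) for Scd2, with 7 of 8 genes 2-fold higher, where 16% of features were so and 13.5% were lower. In trace, the same cells had 5 of 8 genes 2-fold higher, where 10.7% of features were so and 16.9% were lower, and Insig1 stood at 1.29 (0.924 to 1.75) without the Ibsp cells. Insig1 had 158 CPM (109 to 222) in the 33 Ibsp cells of trace, against 58.3 CPM in the 117 non-cycling Ibsp-low cells.

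Some other genes of the same pathways were also higher in the deeper zone of pulse. Of the 97 listed genes beside the 8, 54 reached 20 CPM in non-cycling deeper-zone-like or superficial-zone-like cells of pulse. Of these, 22 were at least 2-fold higher and 4 lower in the deeper-zone-like ones, beside 15.6% of all features higher and 13.5% lower. In cholesterol synthesis 4 of 9 were higher and 0 lower: Fdps, which makes the farnesyl units for Fdft1, had 72.5 CPM against 14.7 CPM. Pmvk and Cyp51, the phosphomevalonate kinase and the lanosterol demethylase, were 4.07-fold and 2.81-fold higher. In fatty acid synthesis 9 of 15 were higher and 2 lower. The desaturases of polyunsaturated fatty acids led these, with Fads2 at 104 CPM against 4.77 CPM and Fads1 at 45.8 CPM against 5.01 CPM, followed by the mitochondrial citrate carrier Slc25a1 at 4.60-fold and the elongase Elovl7 at 3.44-fold.

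Of 10 genes of fatty acid activation, glycerolipids and storage, 5 were higher and 1 lower in the non-cycling deeper-zone-like cells of pulse. The shares of all features were 15.6% higher and 13.5% lower. Fabp5, a fatty acid carrier, had 191 CPM against 6.45 CPM. Pparg, a lipid-sensing nuclear receptor, had 25.4 CPM against 0.836 CPM, and the acyl-CoA synthetase Acsl1 had 124 CPM against 15.5 CPM. Another synthetase, Acsl5, went the other way, with 11.6 CPM in deeper-zone-like cells against 44.3 CPM. Of 14 genes of sterol sensing and uptake, 4 were higher and 1 lower, among them the HDL receptor Scarb1 at 3.67-fold, the exporter Abca1 at 2.70-fold and the SREBP gene Srebf1 at 2.42-fold, while Mylip, which marks the LDL receptor for breakdown, stood at 0.345. The median log2 ratio of these 14 genes was 0.13, near the 0.01 of all features. Srebf2, the SREBP gene tied most to sterol synthesis, had 138 CPM in non-cycling deeper-zone-like and 102 CPM in non-cycling superficial-zone-like cells. Of 6 fatty acid oxidation genes, 0 passed 2-fold in either direction, with Acadl highest at 1.65.

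In cycling over non-cycling deeper-zone-like cells of pulse, 1 of 56 other listed genes was at least 2-fold higher and 2 were lower. Of all features, 9.63% were higher and 2.97% lower, so the count of lower genes was near that share. The higher one was Elovl6, which lengthens palmitate, with 76.5 CPM in cycling and 35.9 CPM in non-cycling cells. The lower ones were Abca1, with 4.03 CPM against 21.9 CPM, and Vldlr, a lipoprotein receptor gene, with 35.5 CPM against 73.8 CPM. Idi1 at 1.93, Lss at 1.79 and Cyp51 at 1.60, further sterol enzymes, had intervals above 1 and did not reach 2-fold.

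In deeper-zone-like over superficial-zone-like cells of trace, 9 of 44 other listed genes were at least 2-fold higher and 5 lower, beside 10.3% of all features higher and 15.3% lower. In cholesterol synthesis 5 of 9 were higher and 0 lower, among them Idi1, with 58.7 CPM against 17.5 CPM. In sterol sensing 1 of 12 was higher and 1 lower, and the higher one was Apoe, a lipoprotein gene, with 139 CPM against 26.9 CPM. Fatty acid synthesis had 2 of 9 higher and 2 lower, activation and storage 1 of 8 higher and 1 lower, and oxidation 0 of 6 higher and 1 lower, counts too small to set apart from the shares of all features. Fads2 had 23.9 CPM against 2.07 CPM, and Acsl1 had 43.8 CPM against 9.01 CPM. Elovl6, with 12.9 CPM in deeper-zone-like against 45.8 CPM in superficial-zone-like cells, and Hacd2, with 27.9 CPM against 83.1 CPM, were lower, both steps of chain elongation.

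Set side by side, the libraries differed most in the desaturases and in Insig1. Scd2 had 59.7 CPM in trace and 677 CPM in pulse deeper-zone-like cells, a ratio of 0.0882 (0.0672 to 0.114). Scd1 had 101 CPM in trace and 332 CPM in pulse, a ratio of 0.305 (0.248 to 0.373), and Insig1 had 78.6 CPM in trace and 324 CPM in pulse, a ratio of 0.242 (0.191 to 0.303). These 3 of 8 were at least 2-fold lower in trace and 0 were higher, where 20.7% of 6523 features were lower and 3.16% higher; nothing is read from this count, since the genes were chosen with the contrast known. Fasn had 22.9 CPM in trace and 45.6 CPM in pulse, a ratio of 0.501 (0.312 to 0.768). The all-feature median was -0.42 on the log2 scale.

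The sterol enzymes had nearer levels in the libraries. Sqle had 40.8 CPM in trace and 41.0 CPM in pulse deeper-zone-like cells, a ratio of 0.995 (0.696 to 1.39). Fdft1 had 57.7 CPM in trace and 68.2 CPM in pulse, a ratio of 0.846 (0.631 to 1.12). Hmgcs1 had 126 CPM in trace and 176 CPM in pulse, a ratio of 0.716 (0.591 to 0.862), and Acaca had 48.7 CPM in trace and 67.2 CPM in pulse, a ratio of 0.726 (0.528 to 0.979). Relative to the all-feature median, Sqle stood at 0.41 and Fdft1 at 0.18 on the log2 scale, so their direction turned with that scaling. In non-cycling Ibsp-low cells, 117 in trace and 598 in pulse, Scd2 stood at 0.102 (0.0746 to 0.137), Scd1 at 0.360 (0.287 to 0.446) and Insig1 at 0.192 (0.138 to 0.260) of the pulse level, again 3 of 8, where 21.4% of features were 2-fold lower and 3.63% higher.

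Of the 50 other listed genes measured in deeper-zone-like cells of both libraries, 1 was at least 2-fold higher and 15 lower in trace, beside 3.16% of all features higher and 20.7% lower. In fatty acid synthesis 7 of 14 were lower, among them Fads2, with 23.9 CPM in trace and 119 CPM in pulse, and Elovl6, with 12.9 CPM in trace and 44.6 CPM in pulse. In activation and storage 5 of 9 were lower, with Fabp5 at 15.9 CPM in trace and 203 CPM in pulse. Cholesterol synthesis had 2 of 9 lower, Sc5d at 0.416 and Pmvk at 0.477, near the share of all features, and fatty acid oxidation 0 of 6. The 1 gene that was higher was Apoe, with 139 CPM in trace and 23.6 CPM in pulse.

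In superficial-zone-like cells the picture was narrower. Insig1 had 45.4 CPM in trace and 132 CPM in pulse, a ratio of 0.343 (0.314 to 0.375), and was the 1 gene of the 8 at least 2-fold lower, where 8.87% of 6221 features were so and 2.25% were higher. Only 4 of the 8 genes reached 20 CPM in either library in this class. Scd2, below that floor, had 18.2 CPM in trace and 16.8 CPM in pulse, a ratio of 1.08 (0.889 to 1.33), and Scd1 had 11.9 CPM in trace and 14.2 CPM in pulse, a ratio of 0.839 (0.669 to 1.06). Sqle had 22.6 CPM in trace and 12.7 CPM in pulse, a ratio of 1.78 (1.44 to 2.23), above 1 while the all-feature median was -0.22 on the log2 scale. Of 39 other listed genes measured, 2 were 2-fold lower in trace, the sterol carrier Stard4 at 0.482 and Acsl5 at 0.450, and 0 were higher.

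Insig1 was lower in trace in every class that could be set side by side. In all 8 classes with 50 or more cells in both libraries its interval of trace over pulse lay below 1, with ratios from 0.0890 in mural-like cells to 0.372 in cells gated on Npy, Angptl7 and Ltbp2. Of 4494 features at 20 CPM or more in either library in each of these classes, 2.56% had an interval below 1 in all 8 and 1.56% one above 1. The classes come from the same pair of libraries and are not replicates, and the all-feature medians were themselves below 0 in both cartilage classes. Many cells of the Npy and Angptl7 class and of the synovial lining class also passed another gate, so the 8 classes are not cleanly separate. For Scd2 the interval lay below 1 in 3 of the 8 classes and for Scd1 in 2.

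Across all classes, deeper-zone-like cells were at or near the top for these genes. In pulse, the intervals of Scd1, Scd2, Hmgcs1 and Insig1 in deeper-zone-like cells lay above those of the class ranked next. Osteoblast-like cells, 52 in pulse, came next for Scd2 with 153 CPM (95.9 to 232), which rest on 22 UMIs in 6 cells, 12 of them in 1 cell. They had 69.6 CPM (33.4 to 128) of Fdft1, beside 68.2 CPM in deeper-zone-like cells. Mural-like and loose connective-like cells of pulse came next for Scd1, at 83.5 CPM (41.7 to 149) and 78.5 CPM (58.6 to 103), and did not differ beyond their intervals.

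In trace, Scd1 was also found in classes outside cartilage. Deeper-zone-like cells had 101 CPM (82.7 to 123), B-lineage-like cells 83.7 CPM (59.2 to 115), macrophage-like cells 72.9 CPM (43.2 to 115) and loose connective-like cells 65.4 CPM (56.3 to 75.6), and each overlapped the next. Superficial-zone-like cells, at 11.9 CPM, and endothelial-like cells, at 1.86 CPM, were near the low end. Hmgcs1, Sqle and Fdft1 were highest in deeper-zone-like cells of trace, with intervals above the class ranked next, which for Hmgcs1 were cells gated on Npy, Angptl7 and Ltbp2 at 62.9 CPM (50.4 to 77.7). Acaca ran from 21.9 CPM in neutrophil-like to 64.8 CPM in macrophage-like cells of trace.

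For Scd2 the 5 highest classes had 59.7 CPM in deeper-zone-like, 41.1 CPM in loose connective-like, 36.6 CPM in osteoblast-like, 28.3 CPM in macrophage-like and 28.2 CPM in synovial-lining-like cells of trace, where each overlapped the next. Fasn had 22.9 CPM in deeper-zone-like, 19.8 CPM in B-lineage-like, 13.2 CPM in loose connective-like, 10.3 CPM in superficial-zone-like and 9.52 CPM in Npy and Angptl7 cells of trace, again with overlap from class to class, and 45.6 CPM in deeper-zone-like, 27.8 CPM in osteoblast-like, 15.2 CPM in mural-like, 8.16 CPM in Npy and Angptl7 and 7.83 CPM in synovial-lining-like cells of pulse. The Fasn intervals of the smaller pulse classes were wide, at 52 osteoblast-like and 64 mural-like cells.

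Hmgcs1 had 176 CPM in deeper-zone-like, 54.4 CPM in loose connective-like, 51.7 CPM in Npy and Angptl7, 35.5 CPM in superficial-zone-like and 27.4 CPM in synovial-lining-like cells of pulse, with a gap after the first. Sqle had 40.8 CPM in deeper-zone-like, 22.6 CPM in superficial-zone-like, 20.5 CPM in Npy and Angptl7, 19.9 CPM in synovial-lining-like and 18.3 CPM in osteoblast-like cells of trace. Only deeper-zone-like cells stood apart from their neighbour in these orders. Insig1 had 78.6 CPM in deeper-zone-like and 73.2 CPM in osteoblast-like cells of trace, which overlapped, and 324 CPM in deeper-zone-like, 209 CPM in osteoblast-like, 164 CPM in synovial-lining-like, 132 CPM in superficial-zone-like and 132 CPM in Npy and Angptl7 cells of pulse.

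**Figure D5:**
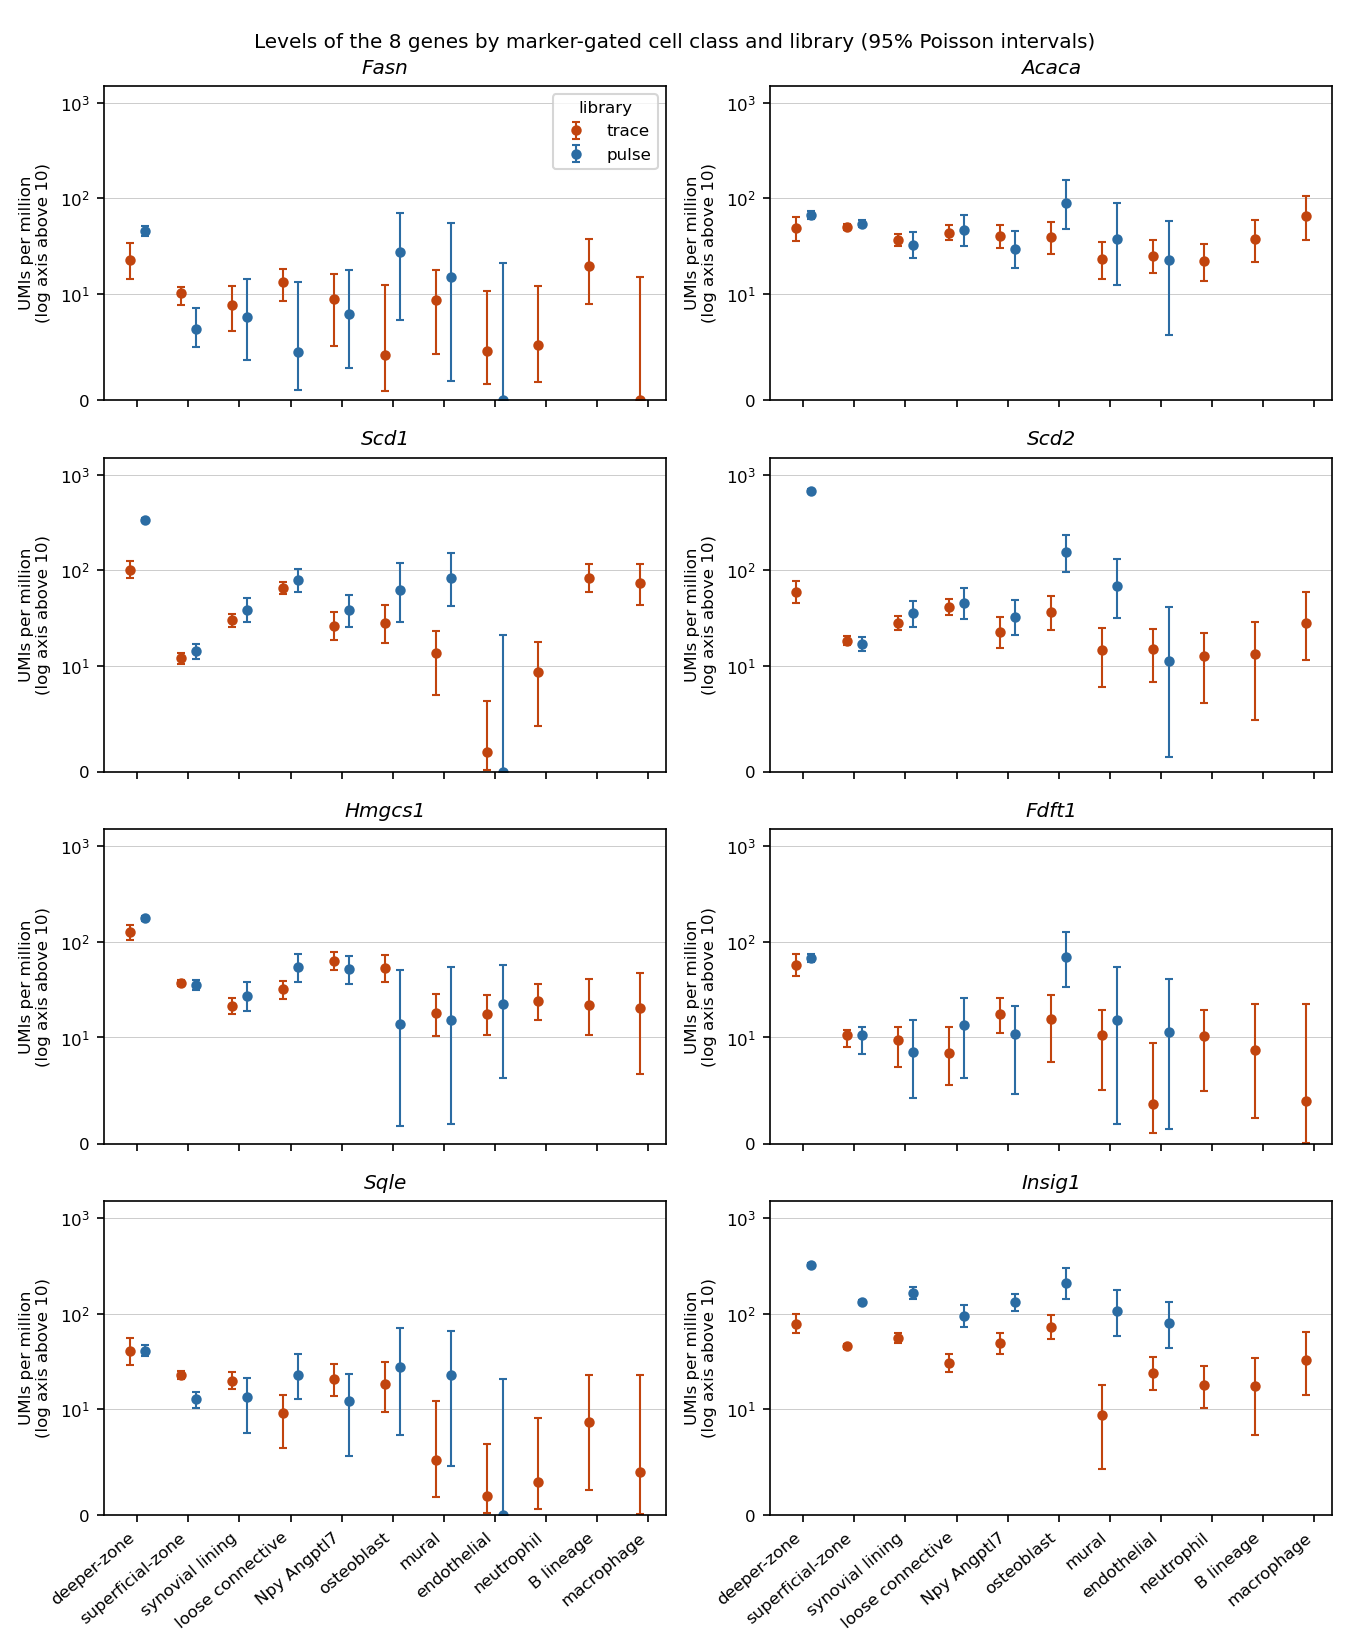
Levels (y axis, CPM, logarithmic above 10 and linear below) of the 8 genes in each marker-gated class of 50 or more cells, in trace (orange, left) and pulse (blue, right), with 95% Poisson intervals. Scd1 and Scd2 of pulse deeper-zone-like cells stand above every other class, Acaca lies between 21.9 and 90.4 in every class, and Insig1 is lower in trace than in pulse in each class measured in both.

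Over 19 columns of class and library with 50 or more cells, each gene was set against the mean of the other 7 on a log2 scale, columns that share libraries, depth and free RNA. Pearson's r was 0.90 for Scd2, 0.83 for Sqle and 0.81 for Fdft1, and 0.59 for Hmgcs1, the lowest. Among 6882 other genes, those with the pattern most like the mean of the 8 were Slirp (r of 0.905), Mydgf, Pak3, C1qtnf3, Slc35e3, P3h1, Matn3, Ankmy1, Bhlhe41 and Ppa1 (0.859). C1qtnf3, a secreted cartilage protein gene, had 21.9 CPM in trace and 242 CPM in pulse deeper-zone-like cells. Bhlhe41 had 199 CPM in trace and 246 CPM in pulse. Matn3 was part of the deeper-zone gate.

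Counts of some genes may hold reads of neighbours, since use of strand in the authors' counting is not given in the sources used here. On GRCm38 with the GENCODE M21 annotation, Fdft1 (chromosome 14, 63145150 to 63179578, minus strand) overlaps Ctsb on the other strand. Ctsb, a lysosomal protease gene, had 138 CPM in non-cycling deeper-zone-like and 114 CPM in superficial-zone-like cells of pulse. Hmgcs1 (chromosome 13, 119690379 to 119708260, plus strand) overlaps Gm48342 on the other strand, which had 14.1 CPM in deeper-zone-like and 2.39 CPM in superficial-zone-like cells of pulse. On the same strand, Scd2 overlaps Mir5114 and Acaca overlaps Gm37391. Scd1 (chromosome 19, 44394455 to 44407879, minus strand) and Scd2 (the same chromosome, 44293674 to 44306864, plus strand) lie close together and share 145 stretches of 50 bases between their longest transcripts, but 0 within the last 1000 bases of either, which a 3′ library reads most. Scd3 and Scd4, the near copies of these genes, had 3 UMIs and 1 UMI in deeper-zone-like cells of pulse and 0 in those of trace, where 3 UMIs would be 2.98 CPM.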

How the data were processed

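The deposited files hold the authors' raw UMI counts per gene and barcode. The count files name Cell Ranger 7.1.0, per the file headers, and 3.0.1 with build mm10, per the submitters' processing notes. Intron counting is not given in the sources used here. From these counts, cells with fewer than 500 genes or over 10% mitochondrial UMIs were left out. Cells were classed by 12 marker gates (at least 3 marker UMIs, the highest share relative to the gate's cutoff taken). UMIs were summed per group and scaled to 1000000 (CPM), and ratios were given exact conditional Poisson intervals, shares Clopper-Pearson ones. A gene was counted at 2-fold or more if one group reached 20 CPM. The cycling rule, at first a fixed number of UMIs, was set at 0.4% of UMIs after 93.6% of pulse deeper-zone-like cells were seen to hold 2 or more cycle UMIs. Members, lists and cutoffs were chosen with earlier results of these data known. All 8 members are named, and up to 4 genes a list with the largest ratio; 1 such gene is not reported here. Doublets were not removed, since Scrublet in scanpy 1.11.5 called 0 cells, which does not show that doublets were absent. An alternative left out the top 5% of scores in each library, with 53 of 751 pulse and 2 of 155 trace deeper-zone-like cells among them. The code was tested on simulated data. 12 alternatives were planned and 5 were added after seeing the data.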

Additional observations from a re-analysis of the deposited data

Results flagged for a closer look

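Fasn, the fatty acid synthase gene, went opposite ways between the libraries in the 2 cartilage classes. Its ratio of trace over pulse was 0.501 (0.312 to 0.768) in deeper-zone-like cells and 1.54 (1.14 to 2.11) in superficial-zone-like cells, so that the deeper-zone ratio was 0.325 (0.193 to 0.546, by a normal approximation on the log scale) of the superficial-zone ratio. In non-cycling Ibsp-low deeper-zone-like cells the ratio was 0.663 (0.401 to 1.04), an interval that spanned 1. With 1 library per group the difference was not tested, and Fasn was below 20 CPM in superficial-zone-like cells of both libraries.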

How the results depend on the processing

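The count of genes at least 2-fold higher in cycling than in non-cycling deeper-zone-like cells depended on how cycling was defined and on depth. It was 0 of 8 as reported, 3 with cycling at 4 or more cycle UMIs, 2 with cycling at 0.1% or more of UMIs, 4 with 2 or more cycle UMIs (with 1 lower) and 2 (Scd2 and Insig1) with only cells of 4000 to under 8000 UMIs. The shares of all features 2-fold higher were 9.63%, 9.32%, 6.92%, 13.1% and 15.3% in that order, and the cause was not tested. It was 0 with cycling defined by 2 or more UMIs of Mki67 and Top2a. The counts of the other comparisons kept within 1.5 times under every alternative run: 5 to 7 of 8 for non-cycling deeper-zone-like over superficial-zone-like cells of pulse, 4 to 7 for deeper-zone-like over superficial-zone-like cells of trace, 3 to 4 for trace over pulse in deeper-zone-like cells and 1 in superficial-zone-like cells. Of 521 values of single genes, 427 stayed within the counting interval, 94 moved outside it and 0 changed sign among called values. Values not called did change sign, and in the cycling comparison 0 of 8 genes were called as reported. Over its settings the log2 ratio ran from -1.56 to 0.46 for Acaca, -0.51 to 2.03 for Fasn and -0.29 to 0.95 for Hmgcs1. It ran from -0.39 to 0.93 for Sqle and -0.04 to 1.57 for Scd1, while Scd2, Fdft1 and Insig1 stayed above 0. No paired analysis was possible because each group has 1 library. Trace deeper-zone-like cells numbered 155, which sets the width of their intervals.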
